A study of Homo sapiens with 6 samples.

Results

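Claudins, occludin and the zonula occludens scaffolds were followed in MDA-MB-231, a breast cancer cell line of human origin with mesenchymal features. All probe sets whose platform annotation gave exactly 1 gene symbol, that of CLDN1, CLDN3, CLDN4, CLDN7, CLDN12, OCLN, TJP1, TJP3 or F11R, were taken. This gave 16 of the 54613 probe sets tested, for 8 of the 9 genes. F11R, a junctional adhesion molecule, had no probe set under its symbol in the annotation used here and was not analysed here. Of the 6 arrays, 3 came from cells given an HS3ST2 expression plasmid and 3 from cells given a control vector. HS3ST2 encodes a heparan sulfate 3-O-sulfotransferase. Both groups are the same line and both were transfected. The sources used here name neither the promoter of the plasmid, nor any selection or cloning, nor the time of harvest.

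Tight junctions seal the space between neighbouring epithelial cells. Claudins are membrane proteins that form the sealing strands and their ion-selective pores, occludin joins those strands, and the zonula occludens proteins tie them to the actin cytoskeleton. Breast cancer lines of mesenchymal type, MDA-MB-231 among them, are classed as claudin-low for their small amounts of CLDN3, CLDN4 and CLDN7. Whether that holds in these arrays could not be checked, because the deposited log2 values are centred on the median of each probe set over the 6 arrays and carry no level. Every value below is therefore a log2 value relative to that median. A difference is the HS3ST2 mean minus the control mean, given with limma's standard error (SE) and n = 3 per group, and it counts as called where the p-value, adjusted by Benjamini-Hochberg over all probe sets or all genes, was under 0.05. In bulk RNA, fewer cells with a transcript and less of it in each cell cannot be told apart.

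Most members differed little between the groups. A probe set of CLDN4 had the largest difference of the 16 and was lower in the HS3ST2-labelled arrays, and 1 of the 2 probe sets of TJP1 was higher. Among gene means, CLDN7 at 0.24 log2, which was not called, and CLDN4 at -0.23 differed most. Of the 16 probe sets, 1 was called higher, 1 lower and 14 were not called, so 12.5% were called against 16.9% of all probe sets. Of the 8 genes, each taken as the mean of its probe sets, CLDN4 alone was called (12.5%), against 24.5% of all 19775 genes. None of the 8 was called higher and 1 lower, where 11.5% and 13% of all genes were. HS3ST2 and control values did not overlap in 5 of the 16 probe sets (31.2%), against 34.1% of all probe sets. These shares were near or below those of the whole array. The median size of a difference was 0.10 log2 over the members' probe sets and 0.12 over all probe sets. The 95% intervals of the 14 probe sets that were not called lay between -0.34 and 0.44.

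**Figure D1:**
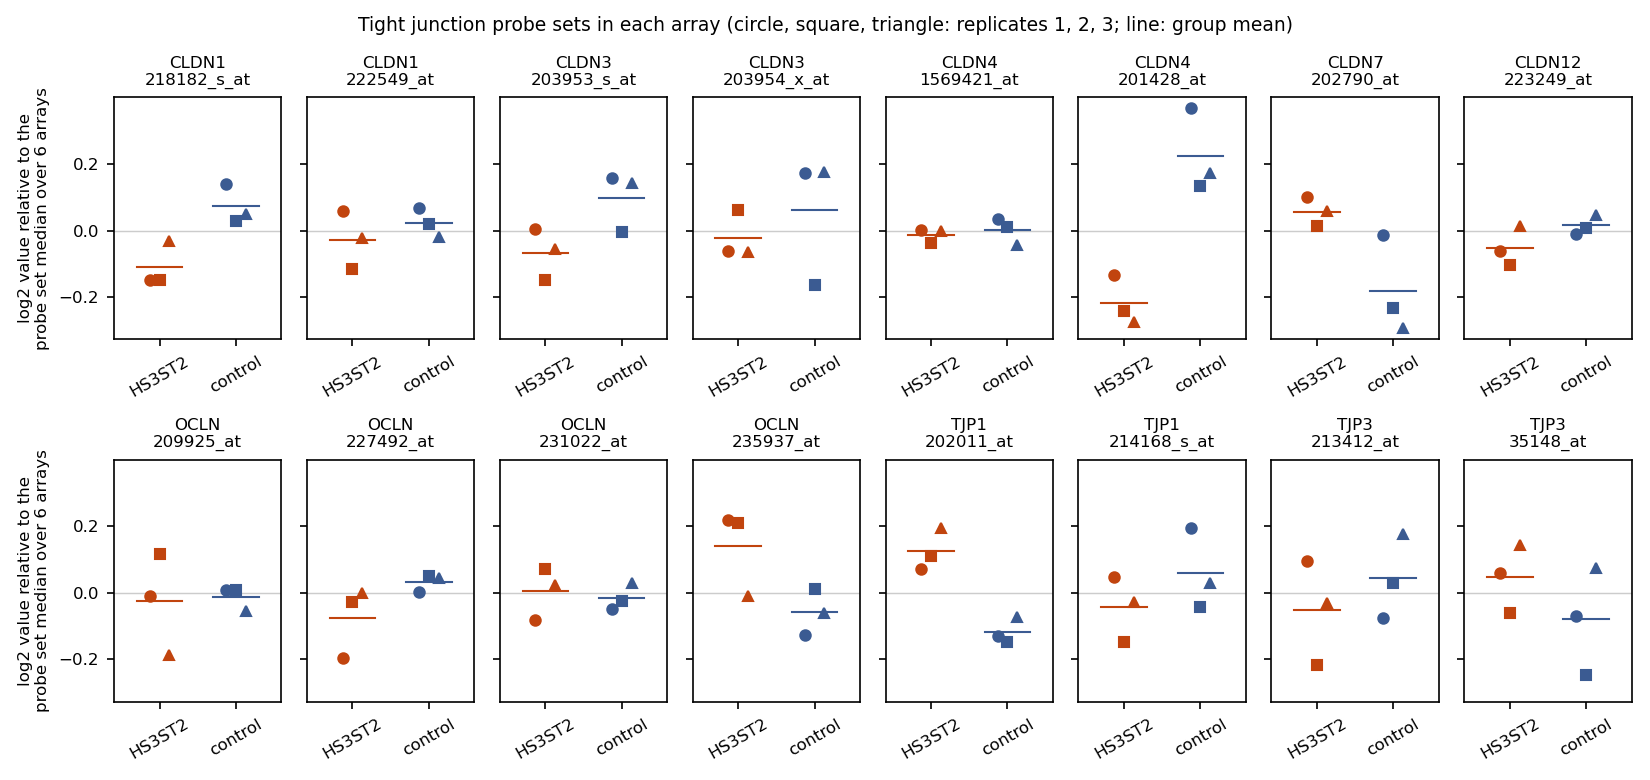
Log2 value of each of the 16 probe sets in each array (vertical axis, relative to the probe set's median over 6 arrays), with HS3ST2-labelled arrays in red on the left and control arrays in blue on the right of each panel, symbols for replicates and a line for the group mean. The groups stand apart most in CLDN4 201428_at, where the HS3ST2 values lie from -0.28 to -0.13 and the control values from 0.13 to 0.37.

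The arrays of a group differed from each other by a median of 0.1 to 0.122 log2 over all probe sets, and arrays of different groups by 0.16 to 0.193. The single probe set of HS3ST2 itself did not check the labels. It had values of 0.16, 0.04 and -0.04 in the HS3ST2-labelled arrays and -0.22, 0.17 and -0.11 in the control arrays, a difference of 0.11 ± 0.11 log2 (SE; limma adjusted p 0.597). Whether it matches the plasmid's transcript is not known here, so the arrays are called HS3ST2-labelled. Over the 6 control probe sets for ribosomal RNA, the median value was 0.02, 0.16 and 0.74 in the HS3ST2-labelled arrays and -0.20, -0.06 and -0.29 in the control arrays. HS3ST2 replicate 3 had the highest such signal, and for the genes named below that gained or lost their call without it, the value without it is given. This leaves aside CLDN15, PECAM1, KRT18, AP1M2 and the 6 genes nearest in pattern to CLDN4 or CLDN7. The GAPDH control probe sets had medians of -0.13, -0.15 and -0.16 in the HS3ST2-labelled arrays and 0.15, 0.13 and 0.13 in the control arrays. Those of beta actin had -0.05, -0.12 and -0.14 in the HS3ST2-labelled arrays and 0.21, 0.05 and 0.12 in the control arrays, also without overlap. The part of these signals in the members' differences was not tested.

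Among the claudins, CLDN4 was lower in the HS3ST2-labelled arrays. CLDN4 is a barrier-forming claudin of epithelia and a receptor for Clostridium perfringens enterotoxin. Its probe set 201428_at had log2 values of -0.13, -0.24 and -0.28 in the HS3ST2-labelled arrays, against 0.37, 0.13 and 0.17 in the control arrays. All 3 HS3ST2 values lay below all 3 control values, and control replicate 1 stood highest. The difference was -0.44 ± 0.08 log2 (SE, limma adjusted p 0.0103), which is 1.36-fold lower, with a 95% interval from -0.64 to -0.24. Without HS3ST2 replicate 3 it was -0.41 (limma adjusted p 0.0414). The other probe set, 1569421_at, did not show the fall. Its values were 0.00, -0.04 and -0.00 in the HS3ST2-labelled arrays and 0.04, 0.01 and -0.04 in the control arrays, a difference of -0.01 ± 0.06 with an interval from -0.16 to 0.13.

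The gap between the 2 CLDN4 probe sets averaged 0.20 log2 in the HS3ST2-labelled arrays and -0.22 in the control arrays, without overlap (two-sided exact permutation p = 0.1, the lowest value possible for 3 arrays against 3). The mean of both was -0.23 ± 0.06 log2 (SE, limma adjusted p 0.0261). This gene-level call was lost without control replicate 1 (-0.18, adjusted p 0.0692), HS3ST2 replicate 2 (-0.21, adjusted p 0.0799) or HS3ST2 replicate 3 (-0.22, adjusted p 0.0797).

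CLDN7, a claudin of epithelial basolateral membranes as well as junctions, lay on the other side of 0. Its single probe set, 202790_at, had log2 values of 0.10, 0.01 and 0.06 in the HS3ST2-labelled arrays, against -0.01, -0.23 and -0.29 in the control arrays. The groups did not overlap, but control replicate 1 lay close below HS3ST2 replicate 2. The difference of 0.24 ± 0.09 log2 (SE, interval 0.04 to 0.44) was not called among probe sets (limma adjusted p 0.112), nor among genes (adjusted p 0.0626). Without control replicate 1 it was 0.32 and was called (limma adjusted p 0.0327 among probe sets and 0.0106 among genes).

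CLDN3, a barrier-forming claudin whose gene lies close to that of CLDN4 on chromosome 7, was not called. Its probe set 203953_s_at had log2 values of 0.00, -0.15 and -0.06 in the HS3ST2-labelled arrays and 0.16, -0.00 and 0.14 in the control arrays. Its probe set 203954_x_at had -0.06, 0.06 and -0.07 in the HS3ST2-labelled arrays and 0.17, -0.16 and 0.17 in the control arrays. In both, control replicate 2 lay apart from the other control arrays, within the HS3ST2 values in the first probe set and below them in the second. The differences were -0.17 ± 0.08 (SE, interval -0.34 to 0.01) and -0.08 ± 0.10 (interval -0.33 to 0.16), with limma adjusted p of 0.206 and 0.669. Without control replicate 2 the gene mean was -0.21 (limma adjusted p 0.0488), against -0.12 with all arrays (adjusted p 0.289). Both probe sets carry suffixes, _s_at and _x_at, that Affymetrix gives to sets whose probes may match more than 1 transcript.

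CLDN1, a claudin required for the barrier of the skin, was not called either. Its probe set 218182_s_at had log2 values of -0.15, -0.15 and -0.03 in the HS3ST2-labelled arrays, against 0.14, 0.03 and 0.05 in the control arrays. The groups did not overlap, and the difference was -0.18 ± 0.07 (SE, interval -0.34 to -0.02, limma adjusted p 0.13). Its probe set 222549_at gave values of 0.06, -0.12 and -0.02 in the HS3ST2-labelled arrays and 0.07, 0.02 and -0.02 in the control arrays, with a difference of -0.05 ± 0.07 (interval -0.22 to 0.12). The gene mean of CLDN1 was -0.12 ± 0.06 (interval -0.25 to 0.01). The only probe set of CLDN12, a claudin that lacks the usual binding motif for scaffold proteins at its end, gave -0.06, -0.10 and 0.01 in the HS3ST2-labelled arrays and -0.01, 0.01 and 0.05 in the control arrays. Its difference was -0.07 ± 0.07 (interval -0.22 to 0.08, limma adjusted p 0.569). Of the 5 claudin members, 1 fell and none rose by limma at the adjusted threshold (20% called, against 24.5% of all genes). An unadjusted p under 0.05 was seen for 2 (40%, against 35.7% of all genes), namely CLDN4 and CLDN7. The median difference of the 5 was -0.12 log2, against 0.01 over all genes, and the median size 0.12 against 0.11.

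**Figure D2:**
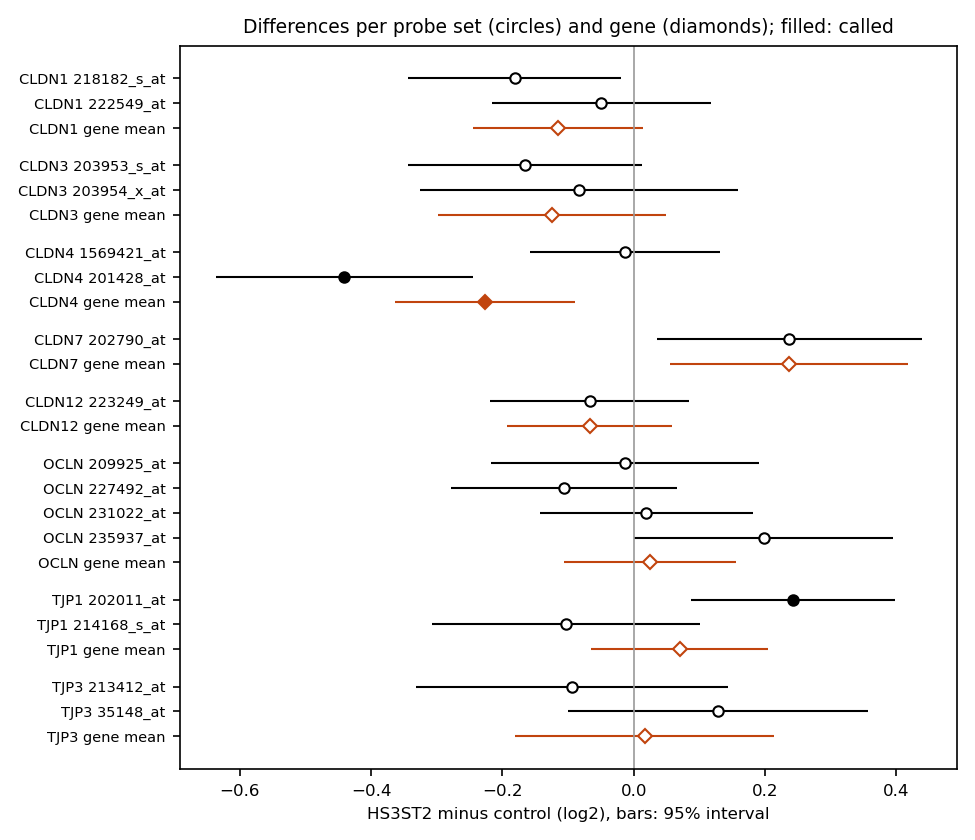
HS3ST2 minus control in log2 (horizontal axis) for each probe set (black circles) and each gene mean (red diamonds), with 95% intervals as bars and filled symbols for differences called by limma at an adjusted p under 0.05. Filled symbols are CLDN4 201428_at at -0.44, the CLDN4 gene mean at -0.23 and TJP1 202011_at at 0.24.

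The estimates of CLDN4 and of CLDN7, which was not called, lay on opposite sides of 0, and CLDN3 and CLDN4 are neighbours. For these genes the 250 bases before the annotated starts are shown, from RefSeq on GRCh38.p14. Repressors of epithelial genes such as SNAI1 and ZEB1 are known to bind the E-box CACCTG, read on the other strand as CAGGTG. Matches to either spelling are in capitals. The windows are CLDN4 at chr7:73830746-73830995 (plus strand), CLDN3 at chr7:73770271-73770520 (minus strand), and the 2 starts of CLDN7 at chr17:7263214-7263463 and chr17:7262479-7262728 (minus strand).
CLDN4: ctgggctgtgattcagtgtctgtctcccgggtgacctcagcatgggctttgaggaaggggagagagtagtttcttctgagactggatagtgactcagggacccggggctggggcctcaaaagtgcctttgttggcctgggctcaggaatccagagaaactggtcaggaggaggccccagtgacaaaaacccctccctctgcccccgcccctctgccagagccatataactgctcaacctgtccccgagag
CLDN3: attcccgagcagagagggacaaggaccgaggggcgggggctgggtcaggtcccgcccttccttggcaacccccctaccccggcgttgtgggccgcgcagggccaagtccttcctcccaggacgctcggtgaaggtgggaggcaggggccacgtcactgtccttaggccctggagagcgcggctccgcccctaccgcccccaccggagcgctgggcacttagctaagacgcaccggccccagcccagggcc
CLDN7, start 1: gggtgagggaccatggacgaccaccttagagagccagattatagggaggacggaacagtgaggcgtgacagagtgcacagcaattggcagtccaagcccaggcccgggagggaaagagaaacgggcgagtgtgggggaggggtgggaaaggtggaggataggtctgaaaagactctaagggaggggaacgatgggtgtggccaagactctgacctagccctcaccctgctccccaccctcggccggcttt
CLDN7, start 2: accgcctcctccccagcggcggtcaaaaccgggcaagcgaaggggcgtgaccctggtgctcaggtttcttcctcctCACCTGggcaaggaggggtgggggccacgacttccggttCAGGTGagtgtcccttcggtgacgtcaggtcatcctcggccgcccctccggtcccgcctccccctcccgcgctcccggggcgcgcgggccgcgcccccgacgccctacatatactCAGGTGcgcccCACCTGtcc
The window of the second CLDN7 start held 4 matches, beginning at positions -174, -135, -20 and -9 from the start, and the windows of CLDN3, CLDN4 and the first CLDN7 start held none. Over all 35116 windows of this length in the table, 17.5% held at least 1. Among the other members, both OCLN windows, 1 of 4 TJP1 windows and 1 of 2 TJP3 windows held 1 match each, and those of CLDN1 and CLDN12 held none. A match is a run of letters and does not show binding. Bases outside these windows were not searched, and the part of such matches in the differences was not tested.

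Occludin, encoded by OCLN, was the first strand protein of tight junctions to be identified, and its gene mean did not differ detectably. Of its 4 probe sets, 235937_at had log2 values of 0.22, 0.21 and -0.01 in the HS3ST2-labelled arrays, against -0.13, 0.01 and -0.06 in the control arrays. HS3ST2 replicate 3 lay among the control values, and the difference of 0.20 ± 0.09 (SE, interval 0.00 to 0.40) was not called (limma adjusted p 0.172). Probe set 227492_at lay on the other side of 0 with -0.19, -0.03 and -0.00 in the HS3ST2-labelled arrays, against 0.00, 0.05 and 0.04 in the control arrays. These groups did not overlap, and the difference was -0.11 ± 0.07 (limma adjusted p 0.41). The remaining probe sets, 209925_at and 231022_at, had differences of -0.01 ± 0.09 and 0.02 ± 0.07. Over the 4, the gene mean was 0.02 ± 0.06, with an interval from -0.11 to 0.16.

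Among the scaffolds, the 2 probe sets of TJP1 parted. TJP1 encodes ZO-1, which binds claudins and occludin through separate domains. Its probe set 202011_at had log2 values of 0.07, 0.11 and 0.20 in the HS3ST2-labelled arrays, against -0.13, -0.15 and -0.07 in the control arrays. Every HS3ST2 value lay above every control value. The difference was 0.24 ± 0.07 (SE, interval 0.09 to 0.40, 1.18-fold higher), with a limma adjusted p of 0.044. The call was lost when any 1 array was left out (0.21 to 0.27, adjusted p 0.0684 to 0.138).

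The second TJP1 probe set, 214168_s_at, had 0.05, -0.15 and -0.03 in the HS3ST2-labelled arrays and 0.19, -0.04 and 0.03 in the control arrays. Its groups overlapped, and its difference was -0.10 ± 0.09 (SE, interval -0.31 to 0.10, limma adjusted p 0.508). The gap between both probe sets averaged 0.17 in the HS3ST2-labelled arrays and -0.18 in the control arrays without overlap (two-sided exact permutation p = 0.1). The gene mean of 0.07 ± 0.06 was not called (adjusted p 0.448), and without the _s_at probe set it was 0.24 and was called (adjusted p 0.0262).

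TJP3 encodes ZO-3, a scaffold largely restricted to epithelia. Its probe set 35148_at had log2 values of 0.06, -0.06 and 0.14 in the HS3ST2-labelled arrays and -0.07, -0.25 and 0.08 in the control arrays. Its probe set 213412_at had 0.09, -0.22 and -0.03 in the HS3ST2-labelled arrays and -0.07, 0.03 and 0.18 in the control arrays. The groups overlapped in both, and the differences of 0.13 ± 0.10 and -0.09 ± 0.10 (SE, limma adjusted p 0.457 and 0.615) had opposite signs. The gene mean was 0.02 ± 0.09, with an interval from -0.18 to 0.21.

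Estimates from probe sets of 1 gene thus had opposite signs for OCLN, TJP1 and TJP3, and differed in size for CLDN4. No probe set of OCLN or TJP3 was called, and the TJP3 gap overlapped between the groups (two-sided exact permutation p = 0.2). The gap between the highest and lowest probe set was 0.43 log2 for CLDN4, 0.35 for TJP1, 0.30 for OCLN, 0.22 for TJP3, 0.13 for CLDN1 and 0.08 for CLDN3. In 3 of the 5 genes with 2 probe sets, CLDN1, CLDN4 and TJP1, this gap did not overlap between the groups (two-sided exact permutation p = 0.1 each), against 27.8% of all 5015 genes with 2 probe sets. For OCLN the pair was chosen among 4 by these differences, so its gap is a description. Since centring removed the levels, probe sets close to background cannot be picked out.

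**Figure D3:**
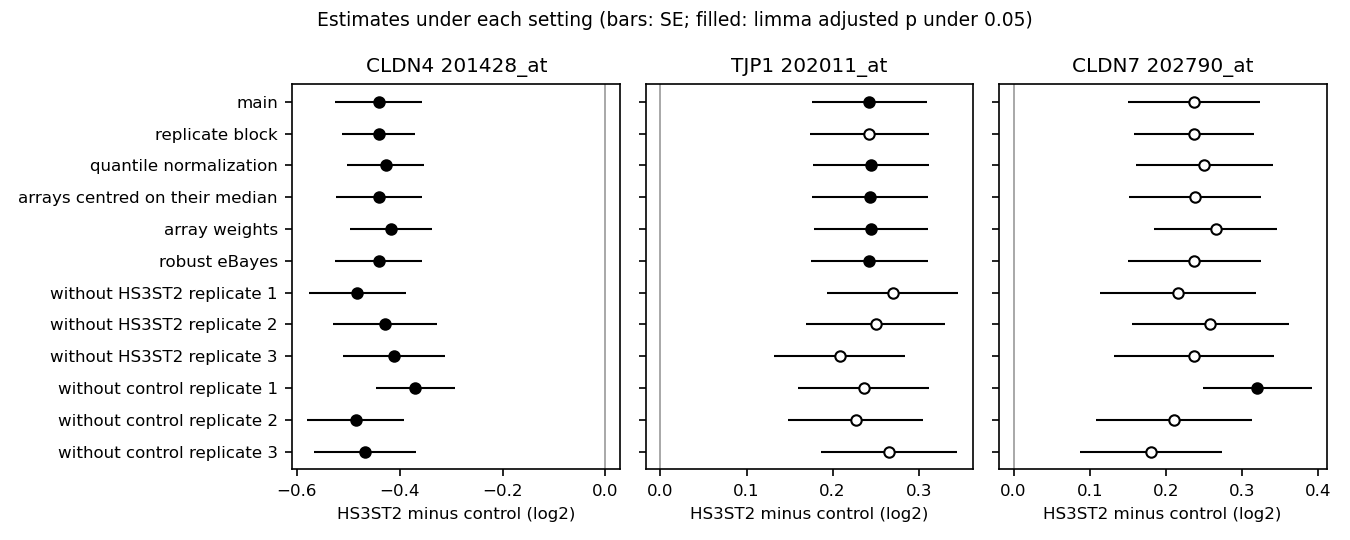
HS3ST2 minus control in log2 (horizontal axis, a scale for each panel, bars for the SE) for 3 probe sets under each processing setting (rows), filled where the limma adjusted p was under 0.05. CLDN4 201428_at lay from -0.49 to -0.37 and was called in every setting shown, TJP1 202011_at was called in 5 of 12 and CLDN7 202790_at in 1 of 12.

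Other genes of the tight junction changed in both directions. Of 61 genes listed by function, 55 were measured, and 8 rose, 5 fell and 42 did not pass, a share called of 23.6% against 24.5% of all genes. Their median difference was 0.03 log2, against 0.01 over all genes. The lists here and below were chosen with earlier results of these data known, so their shares are a description. Among 15 further claudins, only CLDN5, the main claudin of blood vessel endothelium, passed as a gene (6.67%, against 24.5% of all genes). It had log2 values of -0.08, -0.06 and -0.31 in the HS3ST2-labelled arrays, against 0.18, 0.22 and 0.06 in the control arrays, and fell by 0.30 ± 0.08 (SE, limma adjusted p 0.0284). The call was lost without HS3ST2 replicate 3 (-0.22, adjusted p 0.0692), control replicate 1 (-0.29, adjusted p 0.0775) or control replicate 2 (-0.27, adjusted p 0.0932). The only probe set of CLDN5 was not called among all probe sets. CLDN15 had 2 probe sets, at -0.15 and 0.28, of which 1 was called higher, but its gene mean of 0.07 was not called. Of 10 endothelial markers other than CLDN5, 2 were called (20%, against 24.5% of all genes), and the list's median difference was -0.01. VWF, the von Willebrand factor, rose by 0.27 ± 0.08 and KDR, a VEGF receptor, fell by 0.82 ± 0.12 (limma adjusted p 0.0347 and 0.00232). The call of VWF was lost without control replicate 1 (0.21, adjusted p 0.0888), HS3ST2 replicate 1 (0.22, adjusted p 0.106), HS3ST2 replicate 2 (0.29, adjusted p 0.0634), HS3ST2 replicate 3 (0.30, adjusted p 0.0537) or control replicate 2 (0.29, adjusted p 0.065). PECAM1 was not called as a gene, but its 5 probe sets ranged from -0.75 to 0.31, with 1 called lower and 1 called higher. The part of these genes in the result for CLDN5 was not tested.

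Among 15 other membrane proteins of the junction, 2 rose and 2 fell (26.7% called, against 24.5% of all genes). VSIG1, a junctional adhesion protein of gastric epithelium, rose by 0.62 ± 0.06 log2 (SE, limma adjusted p 2.29e-04), with its 2 probe sets at 0.25 and 0.98, of which 1 was called. LSR, which organises junctions where 3 cells meet, had values of 0.20, 0.24 and 0.14 in the HS3ST2-labelled arrays, against -0.15, -0.31 and -0.14 in the control arrays, and rose by 0.39 ± 0.06 (limma adjusted p 0.00317). CXADR, the coxsackievirus and adenovirus receptor, fell by 0.49 ± 0.08 (limma adjusted p 0.00389), and 3 of its 4 probe sets were called lower. Represented by its probe set of largest SD it was at -0.40 and not called (adjusted p 0.186). CLMP, a related adhesion molecule, fell by 0.44 ± 0.06 (limma adjusted p 0.00163), with both probe sets called. EPCAM, which binds CLDN7 in epithelial cells, was at -0.08 ± 0.06 and did not pass (adjusted p 0.409).

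Of 25 scaffolds, polarity proteins and adaptors, 6 rose (24%, against 11.5% of all genes) and 2 fell. With any 1 array left out, 5 rose and 2 fell. With all arrays 32% were called, against 24.5% of all genes, and these shares are a description. The largest of these differences was that of PRKCZ, an atypical protein kinase C of the PAR polarity complex, the complex that positions tight junctions. PRKCZ had log2 values of 0.44, 0.53 and 0.44 in the HS3ST2-labelled arrays, against -0.53, -0.50 and -0.44 in the control arrays, and rose by 0.96 ± 0.05 (SE, limma adjusted p 2.24e-05). PARD6B, its partner in that complex, rose by 0.47 ± 0.07 (limma adjusted p 0.00221), with 1 of its 3 probe sets called. PALS1, a scaffold of the Crumbs polarity complex, rose by 0.35 ± 0.05 (limma adjusted p 0.00141), with both probe sets called. RAB13, a small GTPase that brings junction proteins to the membrane, fell by 0.36 ± 0.05 (limma adjusted p 0.00145). The other gene that fell was TJAP1, a junction-associated protein, by 0.27 ± 0.06 (limma adjusted p 0.0127). CGN, cingulin, was at 0.05 ± 0.10 (interval -0.18 to 0.28) and did not pass. The mean of PARD3, another PAR protein, was at 0.01 ± 0.05 and did not pass, but its 4 probe sets ranged from -0.23 to 0.42, with 1 called lower and 1 called higher.

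**Figure D4:**
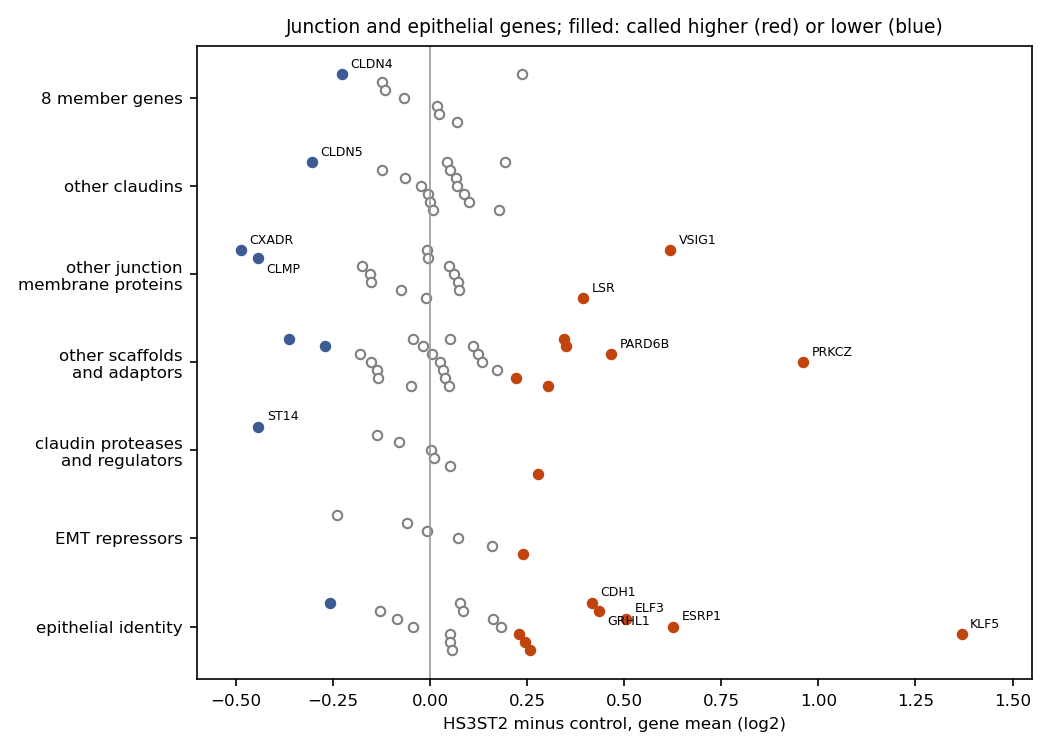
HS3ST2 minus control in log2 for the gene means of each list (horizontal axis, 1 point a gene, rows are lists), filled red where called higher, filled blue where called lower and open where not called. The 8 member genes lie between -0.23 and 0.24, within the range of the other junction genes, which runs to PRKCZ at 0.96.

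Of 7 proteases, inhibitors and other regulators known to act on claudins or EPCAM, 1 rose and 1 fell (28.6% called, against 24.5% of all genes). ST14, the membrane protease matriptase, fell by 0.44 ± 0.06 log2 (SE, limma adjusted p 0.00112), but its 3 probe sets ranged from -0.95 to 0.15, and without those ending in _s_at or _x_at it was at -0.19 and not called (adjusted p 0.111). SPINT2, an inhibitor of matriptase, rose by 0.28 ± 0.07 (limma adjusted p 0.0245), a call lost without HS3ST2 replicate 1 (0.25), HS3ST2 replicate 2 (0.27) or control replicate 2 (0.21). The only probe set of SPINT2 was not called among all probe sets. Of 6 repressors of epithelial genes, 1 was called (16.7%, against 24.5% of all genes). ZEB2 rose by 0.24 ± 0.05 (limma adjusted p 0.0106), while without the _s_at and _x_at probe sets it was at 0.20 and not called (adjusted p 0.0682). Its 5 probe sets ranged from 0.01 to 0.43, with 2 called. SNAI1 was at -0.24 and not called (adjusted p 0.259), and without HS3ST2 replicate 3 it was at -0.39 and called lower (limma adjusted p 0.0427).

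Of 19 measured genes of epithelial identity, 8 rose (42.1%, against 11.5% of all genes) and 1 fell. In all 47.4% were called, against 24.5% of all genes, and the median was 0.16 log2 against 0.01 over all genes. The list was chosen with earlier results of these data known, so these shares are a description. Of these 8, KLF5, an epithelial transcription factor, rose by 1.37 ± 0.08 (SE, limma adjusted p 2.09e-05), the splicing factor ESRP1 by 0.63 ± 0.11, the transcription factor ELF3 by 0.51 ± 0.05 and GRHL1, a grainyhead factor, by 0.43 ± 0.06. Without HS3ST2 replicate 2 or control replicate 2, 5 genes of the list rose, and without the _s_at and _x_at probe sets 4. Among the 8, KRT18 and AP1M2 had no probe set called. The gene that fell was DSP, the desmosome protein desmoplakin, by 0.26 ± 0.07 (limma adjusted p 0.0357), a call lost on leaving out HS3ST2 replicate 1, 2 or 3 or control replicate 2 or 3 (-0.29 to -0.22, adjusted p 0.0516 to 0.112). Without HS3ST2 replicate 3, DSP was at -0.29 (limma adjusted p 0.0516). The only probe set of DSP was not called among all probe sets. Leukocyte and fibroblast markers had no call by limma among 10 measured genes each, against 24.5% of all genes. In each list 0 had an unadjusted p under 0.05, against 35.7% of all genes. The 5 probe sets of the collagen gene COL1A1, whose mean was at -0.07, ranged from -0.36 to 0.16 with 1 called lower. With its probe set of largest SD the gene was at -0.36 and called (limma adjusted p 0.00615). All values of these lists are relative, so absence of their transcripts cannot be stated.

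The genes with the pattern closest to CLDN4 over the 6 arrays, by Euclidean distance between gene means centred over the arrays, were GPX4, TMEM14B and CDC26, at distances of 0.03, 0.03 and 0.04 log2. They differed by -0.23, -0.22 and -0.25. Those closest to CLDN7 were WDR25, DYNC2I1 and FZD2, at distances of 0.05, 0.06 and 0.06, with differences of 0.25, 0.22 and 0.23. The distances rest on 6 arrays in 2 groups and are given as a description.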

How the data were processed

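Gene expression was measured on 6 Affymetrix arrays, 3 a group. The authors' deposited log2 values were made with RMA, per the submitters' processing notes, which name no version. In the values, the median over the 6 arrays was 0 within 1e-06 for all 54675 probe sets, so each had been centred, which removes levels but keeps differences. The log base was taken as 2. Arrays give no counts, so their number limits the precision, and no source says whether they came from separate cultures, so p-values measure the spread between these arrays, which may be technical.

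From these values, 62 control probe sets were set aside. Symbols came from GEO's platform annotation and were updated through gene numbers where a current record existed (41037 of 41091 probe sets with 1 symbol). Probe sets with several symbols (1801) or none (11721) were used in no gene. The 54613 probe sets, and the 19775 gene means, were each fitted by lmFit and eBayes of limma 3.58.1 in R 4.3.3, group being the only term, and p-values were adjusted over each whole table. The fit was tested on simulated data. Exact permutation tests were used for single values. By rule, the named genes are all members, HS3ST2, up to 4 called genes of each list with the smallest p, and the 3 nearest genes of the 2 members with the smallest p. Outside this rule, EPCAM, PARD3, CGN, TJAP1, DSP, SNAI1, COL1A1, CLDN15, PECAM1, KRT18 and AP1M2 were named after their values were seen. The members and the 13 lists were chosen with earlier results of these data known. Of 135 list entries, 125 were measured. Same-numbered replicates did not deviate together (r = 0.152, 0.0407 and -0.0826), so the numbers were not taken as pairs. As alternatives, the fit was repeated with quantile normalization, centring of arrays, array weights, robust eBayes, the replicate number as a block, 1 array left out in turn, an adjusted p under 0.01, and 2 other choices of probe sets for genes. Filters on dim probe sets need levels and were not run. Promoter windows came from RefSeq, without the bases after the start.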

Additional observations from a re-analysis of the deposited data

Results flagged for a closer look

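The ribosomal RNA control probe sets, which enter no comparison of genes, were higher in all 3 HS3ST2-labelled arrays than in any control array. Their median over 6 probe sets averaged 0.31 ± 0.38 in the HS3ST2-labelled arrays and -0.18 ± 0.12 in the control arrays (SD, n = 3 each), a difference of 0.49 log2 (two-sided exact permutation p = 0.1, the lowest value possible here). The highest value was that of HS3ST2 replicate 3. With it left out, CLDN4 201428_at was at -0.41 (limma adjusted p 0.0414), TJP1 202011_at at 0.21 (adjusted p 0.138) and CLDN7 202790_at at 0.24 (adjusted p 0.213).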

How the results depend on the processing

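The lower CLDN4 probe set 201428_at was called under all 11 alternative fits for probe sets at an adjusted p under 0.05. Its differences ran from -0.49 to -0.37 log2 and its limma adjusted p from 0.00681 to 0.0414. In the main fit its adjusted p of 0.0103 was not under 0.01. The members' 2 called probe sets became 1 with the replicate block, where TJP1 202011_at was lost (adjusted p 0.0744), and 0 at an adjusted p under 0.01, with 1 to 2 over left-out arrays. In the set without control replicate 1, where 2 were called, the second was CLDN7 202790_at in place of TJP1. The replicate block, a shared number only, changed no call of a member at gene level. The 1 called member gene, CLDN4, became 2 with array weights, which added CLDN7 (limma adjusted p 0.031). TJP1 was added without the _x_at and _s_at probe sets (which leaves CLDN3 with none) and when the probe set of largest SD stood for a gene (adjusted p 0.0262 and 0.0407). In both, TJP1 rested on 202011_at alone. The count was 0 at an adjusted p under 0.01, and 0 to 2 over left-out arrays. Without control replicate 2, CLDN3 was added (adjusted p 0.0488). Without control replicate 1, CLDN7 was called (adjusted p 0.0106) in place of CLDN4. Why single arrays moved these calls was not tested. The 6 genes nearest in pattern, CLDN15, PECAM1, KRT18, AP1M2 and probe set 243761_at were left aside in the following counts. The 27 other differences named here that were not called gave 318 values under the alternatives, of which 9 were called and 10 had the other sign. The 23 that were called gave 293, of which 259 were called and 0 had the other sign. The values of the other sign came from left-out arrays and belonged to differences near 0. They were CLDN4 1569421_at (-0.035 to 0.0040), OCLN 209925_at (-0.085 to 0.067), OCLN 231022_at (-0.015 to 0.063), and the gene means of OCLN (-0.017 to 0.052), TJP3 (-0.028 to 0.089) and CGN (-0.044 to 0.12). At an adjusted p under 0.01, 4643 probe sets (2208 higher, 2435 lower) and 2840 genes (1285 higher, 1555 lower) were called, and 3 of the other junction genes were lower. Without the _x_at and _s_at probe sets 1661 genes were lower, with fewer genes tested. The number of arrays limits all of these.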

Other observations

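One further probe set, 243761_at, is annotated to CLDN12 together with PTTG1IP2 and was left out of the members. It had log2 values of 0.01, 0.01 and -0.06 in the HS3ST2-labelled arrays and 0.06, -0.13 and -0.01 in the control arrays, a difference of 0.01 ± 0.07 (SE, limma adjusted p 0.931, n = 3 per group).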
